A study of Macaca mulatta with 16 samples.

Results

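In whole blood DNA of rhesus monkeys, 4225 clustered SmaI sites were mostly but not fully methylated in infants. A site was counted here when its mean methylation over the AL-infant monkeys lay between 65 and 90% and when at least 1 other SmaI site was listed within 500 bp of it. Coverage was required on chromosomes 1 to 20, with 100 or more reads in 10 or more of the 13 libraries of normally fed monkeys, which left 24288 of 362007 listed autosomal sites, and the 4225 sites were 17.4% of them. The sites were thus chosen by their AL-infant methylation values, and differences from AL-infant are given below as a description without a test.

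The samples were whole blood of 16 monkeys, each made into a single library. Of the monkeys fed normally (ad libitum, AL), 4 were infants aged 0.8 to 0.9 years (AL-infant; 2 of each sex), 5 were middle-aged at 10.4 to 12.1 years (AL-middle; 1 female) and 4 were old at 21.9 to 29.8 years (AL-old; 1 female). The 3 CR-old monkeys, aged 23.7 to 25.1 years and all female, were under caloric restriction (CR). Per the study's methods, the restriction began in middle age. The question was how methylation drifts with age and whether CR alters this drift.

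A methyl group on the cytosine of a CpG is copied onto the new strand when DNA is replicated, and an imperfect copy lets the level of a site drift over many divisions. In mammalian blood most CpGs outside CpG islands are methylated, while CpG islands at promoters are largely free of methylation, and sites of intermediate or high methylation are known to lose part of it with age. Whole blood is a mixture of cells, so the level of a site is the share of methylated copies over all of them. DREAM reads this share at CCCGGG sequences, since SmaI cuts only the unmethylated sites and XmaI then cuts the methylated ones, leaving different ends on the fragments.

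The libraries held between 8067560 and 126804562 reads at SmaI sites of the genome, and the median site of the set had between 227 and 3949 reads. In each library between 3516 and 4186 of the 4225 sites reached 100 reads, and 2954 sites did so in all 16. The authors corrected the percentage with standards of known methylation added to each sample, which multiplies the odds of methylation by 1 constant per library. This constant averaged 0.433 in AL-infant, 0.595 in AL-middle, 0.340 in AL-old and 0.631 in CR-old and was thus lowest in AL-old. The standard Luc306 read 27.3 to 32.0% before correction in the 5 AL-middle libraries and 50.1 to 68.2% in the 4 AL-old libraries, without overlap, while 2 CR-old libraries read like AL-middle and CR-old 4 read 42.6%. The AL-infant libraries read 41.4 to 56.0%, also without overlap with AL-middle. The standards still differed between AL-old and AL-middle after the correction. Taq353, taken here as 50%, read 35.3 to 41.3% in AL-old and 47.1 to 54.8% in AL-middle. Luc306, taken as 25%, went the other way, with 27.1 to 34.9% and 16.0 to 21.7%. Gpf414, taken as 50%, overlapped, with 42.6 to 49.2% and 47.2 to 53.5%. Differences between these libraries and differences of AL-middle monkeys from AL-old or AL-infant monkeys cannot be told apart. The results on levels are given with and without the correction.

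Most sites of the set had a single close neighbour. The nearest listed site was at a median distance of 149 bp (25th to 75th percentile, 100 to 212 bp), close to the 141 bp of all covered sites and far below the 1457 bp of all listed autosomal sites. The fragments that DREAM sequences run from site to site, and 98.1% of covered sites had a listed neighbour within 500 bp, against 27.1% of listed ones. One neighbour within 500 bp was found for 66.1% of the sites, and 3 or more for 10.0%. The latter share was 9.75% for clustered sites over 90% in AL-infant but 38.9% for covered sites under 5%. Along the chromosomes, 23.5% of the sites lay within 2 Mb of the first base or of the last listed site of a chromosome. For all covered sites this share was 16.4%, for clustered sites over 90% it was 22.6%, for covered sites under 5% it was 9.50%, and for all listed autosomal sites it was 7.47%. The set made up between 10.9% (chromosome 2) and 22.7% (chromosome 10) of the covered sites of a chromosome. Gene and CpG island annotation of the rheMac2 build was not used here.

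The mean corrected methylation of the 4225 sites was 81.0% ± 1.04 (SD, n = 4) in AL-infant, 75.5% ± 3.00 (n = 5) in AL-middle, 62.0% ± 5.29 (n = 4) in AL-old and 76.7% ± 2.50 (n = 3) in CR-old. The AL-infant monkeys 49, 52, 54 and 57 had 80.2, 82.5, 80.4 and 80.7%. The AL-middle monkeys 17, 40, 42, 43 and 46 had 78.3, 72.3, 79.0, 74.5 and 73.4%. All of them were below every AL-infant monkey. The AL-old monkeys 2, 7, 24 and 33 had 61.7, 69.0, 60.9 and 56.2%, and the CR-old monkeys 1, 4 and 28 had 78.6, 73.9 and 77.6%. No AL-old monkey reached the lowest AL-middle or CR-old monkey, and the AL-middle and CR-old monkeys overlapped.

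**Figure D1:**
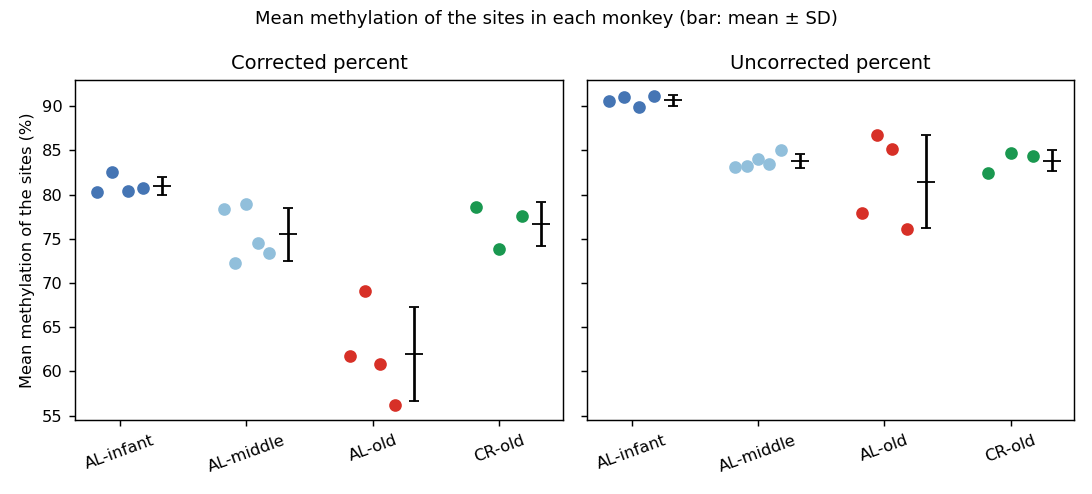
Mean methylation of the 4225 sites in percent (vertical axis) for each monkey (points) in the 4 groups, with the authors' correction on the left and without it on the right; black bars are the mean ± SD over monkeys. The 4 AL-old monkeys lie below all others on the left (56.2 to 69.0%), and on the right they spread from 76.1 to 86.7%, on both sides of AL-middle and CR-old.

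AL-old monkeys were 13.5 percentage points lower than AL-middle monkeys (two-sided exact permutation test, p = 0.00794, which 4 against 5 monkeys cannot undercut, and 0.0238 adjusted over 3 comparisons). CR-old monkeys were 14.7 points higher than AL-old monkeys, a difference that missed the threshold although the groups did not overlap (exact permutation test, p = 0.0571, adjusted 0.0857, where 0.0286 is the smallest possible). CR-old and AL-middle differed by 1.19 points, less than the SD of either group (exact permutation test, p = 0.625). The 3 comparisons share their samples and are not independent of each other.

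A second constant, computed here from the standards Gpf414 and Taq353 alone, gave −6.97 points between AL-old and AL-middle (exact permutation test, p = 0.0873), and a constant from Luc306 alone gave −25.4 points (p = 0.00794 in the same exact test). The libraries were also divided by a low or high Luc306 reading, a division made after seeing the data. CR-old 4 fell with AL-old and was 11.9 points above the mean of the AL-old monkeys, a value given without a test since it is 1 monkey, and CR-old 1 and 28 fell with AL-middle and were 2.60 points above it (p = 0.381 in the exact test).

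Without the correction the difference between AL-old and AL-middle was small against the spread of the AL-old monkeys. The uncorrected means were 90.5, 90.998, 89.9 and 91.2% in AL-infant, 83.1, 83.2, 84.0, 83.4 and 85.03% in AL-middle, and 82.5, 84.7 and 84.3% in CR-old, in the order of the monkeys given above. In AL-old they were 77.9% in monkey 2, 86.7% in monkey 7, 85.1% in monkey 24 and 76.1% in monkey 33. AL-old 2 and 33 were thus below every AL-middle monkey, and AL-old 7 and 24 were above every one of them. The difference between AL-old and AL-middle was −2.29 points (exact permutation test, p = 0.381), and that between CR-old and AL-old was 2.37 points (exact permutation test, p = 0.486). The AL-infant monkeys were above all others on this scale too.

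Site by site, corrected levels in AL-old were mostly lower than in AL-middle, and those in CR-old differed from AL-middle by a median of 0.93 points. Of the 4225 sites, 3912 (92.6%) had a lower mean in AL-old than in AL-middle, with a median difference of −14.3 points and a range of −26.6 to 1.89 from the 5th to the 95th percentile. At all 24288 covered sites the median difference was −0.28 points and 69.7% were lower. Of 134 covered sites of the same window without a listed site within 500 bp, 87.3% were lower, with a median of −15.5 points. Of clustered sites over 90% in AL-infant, 88.5% were lower, with a median of −5.64 points. Without the correction 2860 sites (67.7%) were lower in AL-old, with a median difference of −2.57 points, and at all covered sites 39.4% were lower with a median of 0.11 points. The isolated sites then had 68.7% lower and a median of −3.26 points, and the clustered sites over 90% had 63.2% and −0.69 points. The mean over the monkeys of a group was under 65% at 636 sites (15.1%) in AL-middle, 2427 (57.4%) in AL-old and 493 (11.7%) in CR-old. The median SD of a site between monkeys was 3.57 points in AL-infant, 4.50 in AL-middle, 8.31 in AL-old and 4.16 in CR-old, and without the correction it was 1.93, 2.67, 6.40 and 2.80 points.

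**Figure D2:**
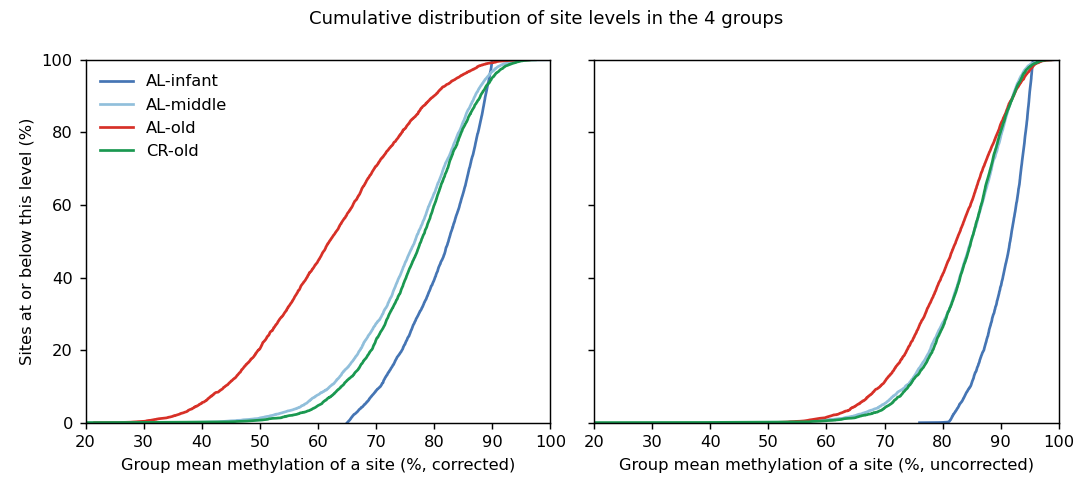
Percent of the 4225 sites (vertical axis) whose group mean methylation is at or below the level on the horizontal axis, for corrected (left) and uncorrected (right) percentages; lines are the 4 groups. The AL-old line stands apart on the left, where 57.4% of sites lie under 65%, while on the right the AL-middle, AL-old and CR-old lines run closer to each other and the AL-infant line stands apart.

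Within a single monkey, the share of the sites under 50% and the spread of the sites were measured as well. The share also depends on the mean level of the monkey, and so on the correction. The share of sites under 50% corrected was 0.096 to 0.265% in AL-infant and 0.889 to 4.80% in AL-middle. It was 24.8, 8.98, 24.1 and 40.9% in the AL-old monkeys 2, 7, 24 and 33, and 1.03, 2.52 and 0.958% in the CR-old monkeys 1, 4 and 28. AL-old exceeded AL-middle by 22.2 points (exact permutation test, p = 0.00794, adjusted 0.0238), and CR-old was 23.2 points below AL-old (exact permutation test, p = 0.0571, adjusted 0.0857). Without the correction the share was at most 1.60% in any monkey, and the first of these differences was 0.536 points (exact permutation test, p = 0.246).

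The spread of the sites within a monkey was larger in AL-old than in AL-middle, also on a scale that the correction cannot move. A constant factor on the odds shifts the natural log odds of all sites of a library equally, so their SD over sites is the same with and without it. This SD was 0.53 to 0.55 in AL-infant and 0.60, 0.66, 0.62, 0.63 and 0.63 in the AL-middle monkeys 17, 40, 42, 43 and 46. It was 0.76, 0.69, 0.68 and 0.81 in the AL-old monkeys 2, 7, 24 and 33, above every AL-middle monkey. In the CR-old monkeys 1, 4 and 28 it was 0.60, 0.66 and 0.62, within the AL-middle range but for CR-old 1 and 4, which lay just outside it on either side. AL-old exceeded AL-middle by 0.11 (exact permutation test, p = 0.00794, adjusted 0.0238), and by 0.11 again after the counting variance of the reads was taken off. CR-old was 0.11 below AL-old and the groups did not overlap, but the difference did not pass the threshold (exact permutation test, p = 0.0857, adjusted 0.129). In corrected percent the SD over sites was 15.1 points in AL-old, 10.7 in AL-middle and 10.3 in CR-old, and the difference of −4.81 points between CR-old and AL-old passed the threshold there (exact permutation test, p = 0.0286, adjusted 0.0429).

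**Figure D3:**
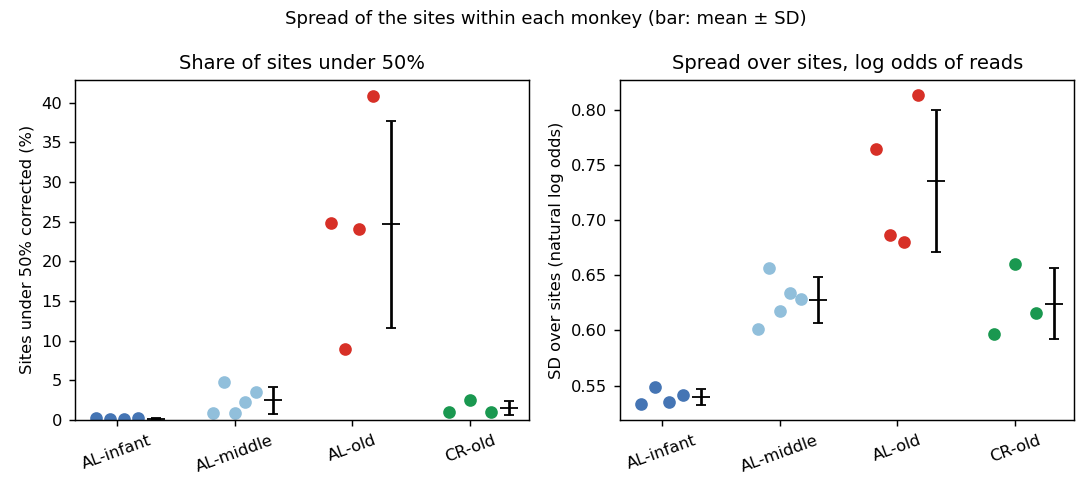
Share of the 4225 sites under 50% corrected methylation (left, percent) and SD over the sites of the natural log odds of methylated reads, which the correction does not change (right), for each monkey (points) by group; black bars are the mean ± SD over monkeys. AL-old monkeys reach 8.98 to 40.9% on the left and 0.68 to 0.81 on the right, above every other monkey in both panels.

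The sites were set beside isolated sites of the same AL-infant window and beside clustered sites of higher methylation. At 134 covered sites with the same AL-infant window but no listed site within 500 bp, the group means were 80.7, 74.5, 60.6 and 76.9% from AL-infant through AL-middle and AL-old to CR-old. The clustered minus the isolated mean was 1.35 points in AL-old and 1.01 in AL-middle, and these differed by 0.336 points (exact permutation test, p = 0.548). The isolated sites were few, and a division at 200 bp, with 1377 isolated sites, gave a difference of 1.35 points between AL-old and AL-middle (exact permutation test, p = 0.00794, adjusted 0.0238). At 5633 clustered sites over 90% in AL-infant, the corrected level was closer to complete methylation in each group, and the 4225 sites lay 16.6 points below them in AL-middle, 23.0 points in AL-old and 15.8 points in CR-old. The signed gap changed by −6.36 points from AL-middle to AL-old (exact permutation test, p = 0.00794, adjusted 0.0238) and by 7.16 points from AL-old to CR-old (exact permutation test, p = 0.0286, adjusted 0.0429). In log odds of the reads, where the constant has no part in the gap, the gap between the sets changed by −0.03 between AL-middle and AL-old (exact permutation test, p = 0.0476, adjusted 0.143) and by 0.03 between AL-old and CR-old (p = 0.314), and neither change passed the threshold.

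Reads of each site were then compared between groups with a logistic model, with the authors' constant as an offset. The dispersion was moderated with limma over all sites tested. In this model monkeys with more reads weigh more. The median site had 1880 reads in AL-old 7 and 227 to 538 in the other AL-old monkeys. It had 3270 and 3949 reads in CR-old 1 and 28 and 462 in CR-old 4. Of 3941 sites of the set that could be tested between AL-old and AL-middle, 1370 (34.8%) were lower in AL-old and 17 (0.431%) were higher at an adjusted p under 0.05. Among all 23394 sites tested, 13.6% were lower and 1.92% were higher. Lower calls were made at 30.3% of the isolated sites of the window and at 21.6% of the clustered sites over 90%. The direction of these calls depended on the constant. Without the offset, 225 sites were higher (background 10.7%) and 96 were lower (background 1.10%). Uncorrected group means, which count each monkey equally, were instead lower in AL-old at 2860 of the 4225 sites. The part of read depth in this was not tested. The sites called in the same direction both ways were 17 higher and 96 lower ones (background 1.91 and 1.10%). Leaving out AL-old 7 raised the lower calls to 2377, and leaving out AL-middle 17 reduced them to 651. The higher calls were 6 to 9 without AL-middle 17, 43 or 46 or without AL-old 2. Shares over all sites tested are not given for the counts with a monkey left out, which compare fits of the same set only.

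Among sites with 100 reads in every library, the largest fall in AL-old was at SmaI_rheMac2_52948 on chromosome 2 at position 186254185, which had 8 listed neighbours. Its corrected level was 85.7, 69.0, 88.5, 76.0 and 74.5% in the AL-middle monkeys and 29.4, 30.4, 29.4 and 29.0% in the AL-old monkeys. The difference was −49.2 points, or −2.28 ± 0.18 in log odds (SE; limma-moderated logistic model, adjusted p = 0.00045), and it was −31.2 points without the correction (adjusted p = 0.00263). The 4 AL-old values were far below the AL-middle range and nearly equal on the corrected scale, whereas uncorrected they were 49.5, 57.8, 62.6 and 52.9%, still below the 81.6 to 91.9% of AL-middle. In CR-old the site had 81.2% in monkey 1, 39.5% in monkey 4 and 90.1% in monkey 28, and in AL-infant it had 81.7, 86.1, 85.6 and 45.3%. CR-old 4 and AL-infant 57 thus stood between AL-old and the other monkeys.

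The next largest fall was at SmaI_rheMac2_210650 (chromosome 11, position 8252708, nearest site at 158 bp). It had 85.1, 86.1, 95.1, 84.1 and 83.9% in AL-middle. In AL-old it had 53.8, 50.8, 33.9 and 45.8%, and in CR-old 46.6, 69.7 and 26.7%. The site fell by 40.8 points in AL-old against AL-middle (limma-moderated logistic model, adjusted p = 0.000894, and 0.00561 without the offset) and fell by 39.2 points in CR-old against AL-middle (adjusted p = 0.0327, and 0.0369 without the offset). This was the only site of the set called lower in CR-old than in AL-middle, and all 3 CR-old monkeys were below all 5 AL-middle monkeys.

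With the offset, called rises in AL-old were rarer than called falls, and without it called rises outnumbered called falls. The 2 largest rises that passed the test with the offset, among sites with 100 reads in every library, passed it without the offset as well. Over all sites of the set the corrected difference reached 38.5 points. By over 10 points, 33 of the 4225 sites were higher, and so were 187 of all 24288 covered sites. SmaI_rheMac2_151402 (chromosome 7, position 156302228) had 59.3, 57.5, 54.4, 47.8 and 53.8% in AL-middle and 77.2, 81.6, 61.9 and 76.5% in AL-old. The rise of 19.7 points passed the test (limma-moderated logistic model, adjusted p = 0.00781), and it was 22.7 points without the correction. In AL-infant it had 83.1, 81.3, 73.8 and 64.1% and in CR-old 82.6, 72.6 and 69.3%, so AL-middle was the low group at this site. SmaI_rheMac2_190212 (chromosome 10, position 5858242) had 66.9, 62.6, 61.1, 68.4 and 61.8% in AL-middle and 89.9, 75.3, 76.2 and 75.5% in AL-old, a rise of 15.1 points (limma-moderated logistic model, adjusted p = 0.0315, and 0.0722 when all 4 groups shared a fit).

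**Figure D4:**
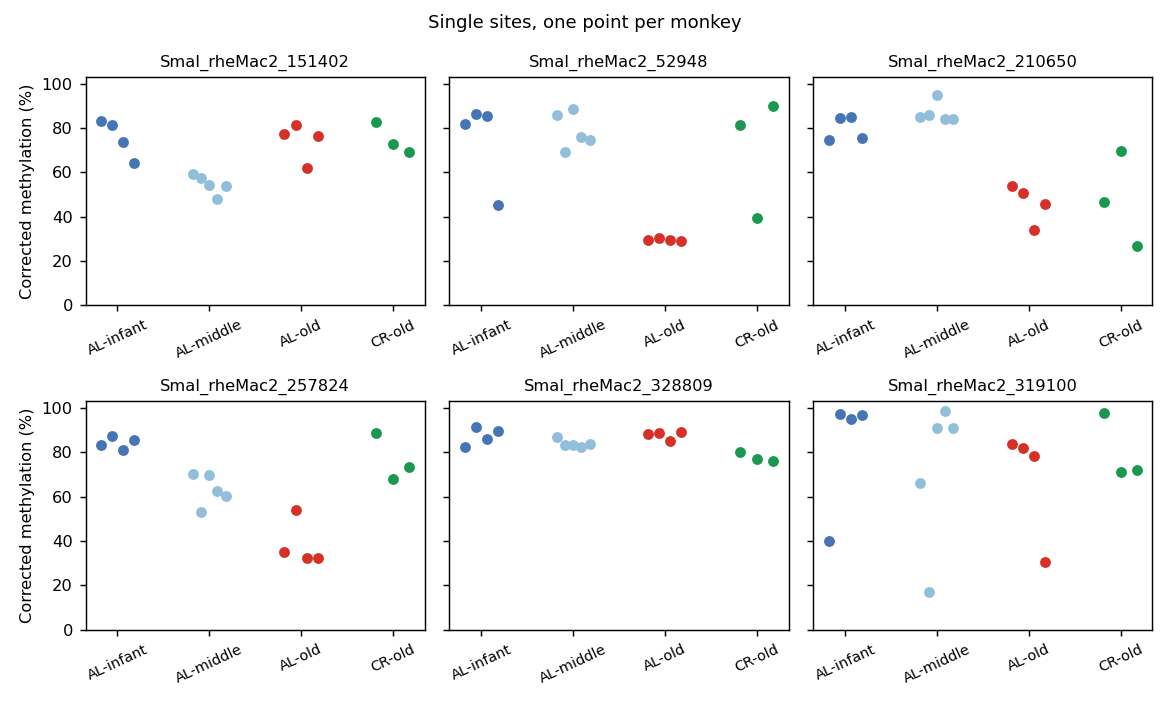
Corrected methylation in percent (vertical axis) of 6 single sites in each monkey (points) of the 4 groups. The 4 AL-old monkeys lie together near 29% at SmaI_rheMac2_52948, AL-middle is the low group at SmaI_rheMac2_151402, and a single monkey of each AL group lies at 16.95 to 40.2% at SmaI_rheMac2_319100.

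Between CR-old and AL-old, 1673 of 4045 tested sites (41.4%) were higher in CR-old and 6 (0.148%) were lower, against 14.5% and 0.531% of all 33134 sites tested. Higher calls were made at 44 of 110 isolated sites of the window and at 23.6% of clustered sites over 90%. Without the offset 21 sites were higher (background 0.190%) and 37 lower (background 2.26%), and 21 higher and 5 lower sites were called both ways (background 0.190 and 0.498%). The CR-old monkeys were all female and the AL-old monkeys mostly male. A fit over all 16 monkeys with a term for sex called 2010 sites higher, while limma on the log2 odds of single monkeys called none. There, 2066 of the sites higher in CR-old had an unadjusted p under 0.05. No share over all sites tested is given for these counts or for those with a monkey left out. They compare fits of the same set only. The higher calls were 1035 without AL-old 2, 1066 without AL-old 24, 815 without CR-old 1 and 874 without CR-old 28, and the lower calls were 0 to 2 without AL-old 2, 24 or 33 or without CR-old 1.

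Among sites with 100 reads in every library, the largest rise in CR-old that passed the test was at SmaI_rheMac2_52948, described above, with 40.7 points (limma-moderated logistic model, adjusted p = 0.0347), and it did not pass without the offset (adjusted p = 0.12). CR-old 1 and 28 were far above AL-old, and CR-old 4, at 39.5%, was close to it. The next was SmaI_rheMac2_257824 (chromosome 14, position 5393560), with 34.9, 53.8, 32.5 and 32.1% in AL-old and 88.6, 68.2 and 73.2% in CR-old, a rise of 38.3 points (limma-moderated logistic model, adjusted p = 0.0261, and 0.158 without the offset). The site had 70.2, 53.2, 69.8, 62.6 and 60.4% in AL-middle, so the CR-old monkeys overlapped that group and not AL-old. Uncorrected, CR-old (81.3 to 90.98%) was above both groups.

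Of 4224 sites of the set with a CR-old value, 21 were lower in CR-old than in AL-old by over 10 corrected points, by up to 60.04 points. Among all 24280 covered sites with such a value, 139 were lower by over 10 points. The 2 largest falls that passed the test at sites with 100 reads in every library were smaller and both on chromosome 19. SmaI_rheMac2_328809 (position 2014800) had 88.4, 88.5, 85.1 and 89.2% in AL-old and 80.1, 77.0 and 76.2% in CR-old, where it fell by 10.0 points (limma-moderated logistic model, adjusted p = 0.0254, and 0.00739 without the offset). SmaI_rheMac2_335322 (position 17287078) had 83.7, 79.3, 68.8 and 81.2% in AL-old and 64.9, 76.5 and 70.3% in CR-old, where it fell by 7.68 points (adjusted p = 0.0342). On the corrected scale CR-old and AL-old overlapped at the second site, through AL-old 24, and did not at the first, and uncorrected they overlapped at neither.

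CR-old and AL-middle differed at few sites. Of 3835 sites tested, 13 (0.339%) were higher in CR-old and 1 (0.0261%) was lower, and the shares among all 23010 sites tested were 0.269% and 0.00869%. Without the offset 7 were higher and 3 lower (background 0.117 and 0.0304%), and 2 higher and 1 lower were called both ways (background 0.0695 and 0.00869%). With the term for sex 2 sites were higher and none was lower, and 568 and 126 sites had an unadjusted p under 0.05 in the first model. For these counts too no share over all sites tested is given. Leaving out any AL-middle monkey left 0 or 1 higher sites and no lower one. Without CR-old 4 there were 53 higher and 7 lower sites, without CR-old 28 there were 4 and 3, and without CR-old 1 there were 16 and 21. Over all sites of the set the corrected difference between CR-old and AL-middle ran from −90.6 to 31.0 points. From the 5th to the 95th percentile it ran from −6.11 to 9.78 points. Among sites with 100 reads in every library, the largest rise that passed the test was at SmaI_rheMac2_338544 (chromosome 19, position 41485627), with 57.9, 44.95, 59.99, 52.1 and 46.6% in AL-middle, 73.5, 74.5 and 78.0% in CR-old, and 50.3 to 55.9% in AL-old. The rise was 23.0 points (limma-moderated logistic model, adjusted p = 0.0297, and 0.0872 without the offset), and with the correction CR-old lay near AL-infant at this site (69.1 to 75.2%) and apart from both other groups. Uncorrected, CR-old had 78.2, 85.7 and 84.99% and overlapped AL-old, which had 70.6, 79.9, 81.2 and 76.1%, and the difference between them did not pass without the offset (limma-moderated logistic model, adjusted p = 0.738). SmaI_rheMac2_215493 (chromosome 11, position 50395382) was 20.8 points higher in CR-old, with 80.6, 77.8 and 85.2% against 52.8 to 65.9% in AL-middle (adjusted p = 0.0262, and 0.0877 without the offset), and here CR-old was also above AL-infant (63.4 to 70.6%).

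Against AL-infant, whose values chose the sites, every AL-old monkey was lower than every AL-infant monkey at 2353 of the 3723 sites with 100 reads in all of these libraries (63.2%), where the share was 29.5% over all sites with such reads. Without the correction this was so at 1698 sites (45.6%), against 20.8%. The median difference from AL-infant was −4.95 points in AL-middle, −19.3 in AL-old and −4.38 in CR-old with the correction, and −6.16, −8.75 and −6.39 points without it. On either of these 2 scales all 3 groups of older monkeys thus had lower medians than AL-infant, and AL-old had the lowest. This did not hold for each constant. From AL-infant through AL-middle and AL-old to CR-old, the constant from Luc306 alone gave means of 77.7, 81.0, 55.6 and 77.7%. The constant from Gpf414 and Taq353 gave 84.7, 75.6, 68.6 and 79.1% in the same order. Over the window, the difference between AL-old and AL-middle varied little with the correction and grew with the AL-infant level without it. With the correction, sites at 65 to 70% in AL-infant were 12.6 points lower in AL-old than in AL-middle, sites at 75 to 80% were 14.1 points lower, and sites at 85 to 90% were 13.2 points lower. Without it the differences at these sites were −0.512, −2.23 and −2.81 points.

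At the limits of the window, membership rested on small differences. Just inside the lower limit were SmaI_rheMac2_274262 (AL-infant monkeys at 61.2 to 67.9%) and SmaI_rheMac2_238127 (60.7 to 67.5%), and just outside it SmaI_rheMac2_189654 (58.5 to 73.3%) and SmaI_rheMac2_327374 (57.7 to 71.9%). Just inside the upper limit were SmaI_rheMac2_335873 (89.3 to 91.03%) and SmaI_rheMac2_255801 (87.1 to 91.9%), and just outside SmaI_rheMac2_205678 (88.5 to 90.9%) and SmaI_rheMac2_206958 (85.1 to 93.5%). Single monkeys at these sites lay on both sides of the limit. The site nearest the median AL-infant level, SmaI_rheMac2_346842 (chromosome 20, position 1030982), had 80.4 to 85.5% in AL-infant, 81.8 to 91.9% in AL-middle, 59.5 to 78.8% in AL-old and 89.6 to 93.8% in CR-old.

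Chromosome 19 held 348 of the sites, and they were lower in AL-old on the corrected scale by less than the sites of any other chromosome. On chromosome 19 the corrected mean in AL-old was 8.08 points below AL-middle, and on the other 19 chromosomes it was between 11.1 points (chromosome 18) and 16.0 points (chromosome 6) below. Without the correction the difference was 0.969 points on chromosome 19 and between −3.85 and −0.842 points elsewhere. The corrected difference between CR-old and AL-old was likewise 9.84 points on chromosome 19 and 12.6 to 16.9 points elsewhere, and without the correction it was −0.502 points on chromosome 19 and 0.799 to 3.99 points elsewhere. In AL-infant the sites of chromosome 19 were at 81.4% and all others at 80.9%. This contrast was noticed in the values and was given no test.

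**Figure D5:**
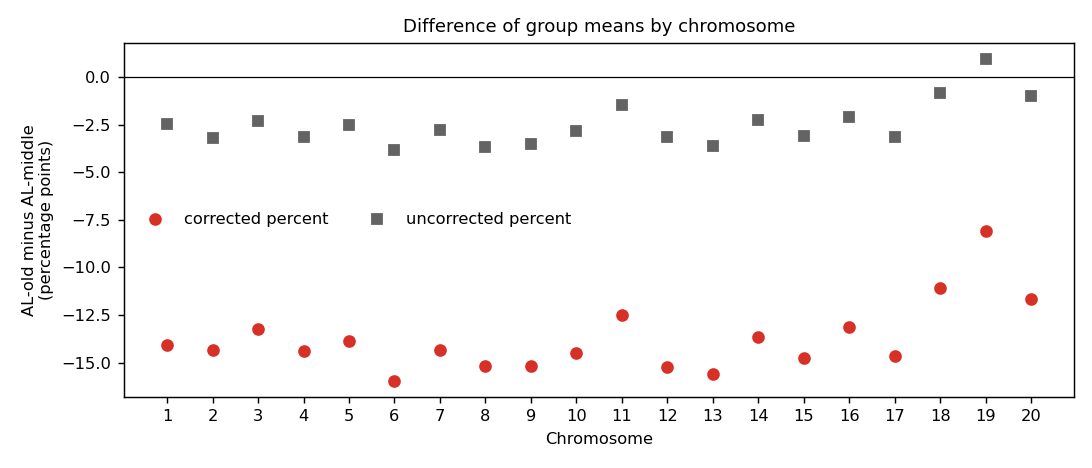
AL-old minus AL-middle difference of group means in percentage points (vertical axis) over the sites of each chromosome (horizontal axis), for corrected percentages (circles) and uncorrected ones (squares). Chromosome 19 is the highest point in both series, at −8.08 and 0.969 points.

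The contrast within each library, which the correction cannot move in log odds, showed the same for chromosome 19 in every AL-old monkey. The mean log odds of the sites on chromosome 19 exceeded that of the other sites by 0.48, 0.24, 0.28 and 0.50 in the AL-old monkeys 2, 7, 24 and 33. In the AL-middle monkeys the excess was 0.06 to 0.15, in AL-infant 0.01 to 0.08 and in the CR-old monkeys 1, 4 and 28 it was 0.09, 0.23 and 0.12. Each AL-old monkey was above every other monkey, although CR-old 4 came close to AL-old 7. The 592 clustered sites over 90% on chromosome 19 had an excess over those of other chromosomes of 0.29 to 0.66 in AL-old, 0.16 to 0.30 in AL-middle and 0.21 to 0.35 in CR-old, so a contrast of the same sign was present outside the 65 to 90% window, with AL-old overlapping both groups. Sites with many neighbours also had higher log odds than the rest in all older monkeys. The 424 sites with 3 or more neighbours exceeded the others by 0.12 to 0.23 in log odds in AL-old, 0.07 to 0.15 in AL-middle and 0.12 to 0.19 in CR-old, and the groups overlapped.

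Differences between AL-old and AL-middle were smaller at sites beside a site under 35% in AL-infant than beside sites of higher methylation. At 216 sites whose nearest covered neighbour was under 35% in AL-infant, AL-old was 11.4 points below AL-middle, with 64.6% ± 3.76 (n = 4) against 76.0% ± 2.08 (n = 5). The difference was 14.0 points, the largest, at the 448 sites whose neighbour was at 35 to 65%. It was 13.9 points at the 1741 sites whose neighbour was also at 65 to 90% and 13.2 points at the 1367 sites whose neighbour was over 90%. Without the correction the differences at these kinds of site, in the same order, were −0.934, −2.68, −2.48 and −2.09 points. By distance to the nearest listed site, the corrected difference was 12.7 points within 50 bp, 11.8 points over 50 and up to 100 bp, 13.8 points over 100 and up to 200 bp and 14.5 points over 200 bp, and was thus smallest in the second class. Without the correction it was −1.84, −1.09, −2.46 and −3.00 points.

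Neighbouring sites of the set shared part of their differences. In 931 pairs of sites of the set, at least 1 site had the other as its nearest covered neighbour. Over these pairs the differences between AL-old and AL-middle had a Pearson r of 0.51 with the correction and 0.50 without it. The AL-infant levels, confined to the window, had an r of 0.07. Such neighbours can be the 2 ends of the same fragments and share each library, so these pairs are described without a test. The median absolute difference between the sites of a pair was 6.13 points in AL-infant, 8.60 in AL-middle, 10.4 in AL-old and 8.18 in CR-old.

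The run of neighbouring sites with most members was on chromosome 10, between positions 987516 and 988169, where 5 of 6 listed sites belonged to the set. SmaI_rheMac2_188696, SmaI_rheMac2_188697, SmaI_rheMac2_188698, SmaI_rheMac2_188699 and SmaI_rheMac2_188700 differed by −21.6, −20.4, −17.8, −19.1 and −19.9 points between AL-old and AL-middle. All but SmaI_rheMac2_188697, which had under 100 reads in 2 AL-middle libraries, passed the test (limma-moderated logistic model, adjusted p = 0.032, 0.0478, 0.00477 and 0.00368), and none did without the offset. Their levels still differed from site to site. In AL-old 33, which had the lowest mean of all monkeys, they had 29.7, 52.2, 62.0, 56.9 and 41.7%. The closest pair, SmaI_rheMac2_138696 and SmaI_rheMac2_138697 on chromosome 7, lay 7 bp apart at positions 52013973 and 52013980, and yet had 39.9 to 65.1% and 68.1 to 80.5% in AL-old, without overlap on the corrected scale. Uncorrected, the ranges over the AL-old monkeys were 64.6 to 85.4% and 84.5 to 92.8% and overlapped. Within a monkey the constant is the same for both sites and does not change which of them is higher. SmaI_rheMac2_138696 was thus the lower site in each AL-old monkey. In AL-middle the corrected levels were 64.9 to 83.8% and 85.1 to 87.8%.

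The most and least variable sites bounded the differences between single monkeys. SmaI_rheMac2_319100 (chromosome 18, position 1770547) had the largest SD over the 16 libraries, 25.5 points. It had 40.2, 97.4, 95.3 and 97.1% in AL-infant, 66.3, 16.95, 90.8, 98.7 and 91.2% in AL-middle. Among old monkeys it had 84.0, 81.8, 78.6 and 30.6% in the AL group and 97.8, 71.2 and 72.1% in the CR group. A single monkey of each AL group lay under 50% corrected, and all other monkeys were at 66.3% or above. SmaI_rheMac2_308800 (chromosome 16, position 77555574) had the smallest SD, 1.496 points, and stayed between 83.9 and 89.4% in all 16 monkeys, on the corrected scale.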

How the data were processed

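Whole blood DNA of 16 monkeys was measured with DREAM, and the authors mapped reads to SmaI sites of rheMac2, the build in the site names and in the study's methods; the submitters' processing notes name Bowtie2 and SAMtools. For each of 375949 listed sites the authors deposited read counts (methylated, unmethylated, total), unfiltered. They also deposited 2 values in percent, an uncorrected one ((methylated + 0.5)/(total + 1), tested to within 0.005 points) and one corrected with spiked standards of 0, 25, 50 and 100% methylation. On the values, the correction multiplied the odds by 1 constant per library (within 0.00521 points). Group and monkey number came from the sample titles, and monkeys called young there are the study's AL-infant class. Nothing pairs monkeys across groups.

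Sites were chosen and compared as described, with values under 100 reads left out. The sites, lists and named-site rule were chosen with earlier results of these data known. Values per monkey were compared by two-sided exact permutation of the difference of means, adjusted (Benjamini-Hochberg) over 3 comparisons. Counts were compared with quasi-binomial logistic models at all autosomal sites with 100 reads in at least 3 monkeys per group, the log constant as offset, dispersion moderated with limma and Benjamini-Hochberg adjustment over all sites at 0.05. Reads were also simulated, with a shift of 1.5 in log odds at some sites. For AL-old against AL-middle (3829 sites), 77.8% of shifted sites were found and 0.687% of unshifted sites were called. These shares were 74.5 and 0.608% for CR-old against AL-old (3985 sites). They were 82.0 and 0.958% for CR-old against AL-middle (3844 sites). Simulated monkeys varied independently at each site and alike in all groups, with the constants taken as known. Errors in the constants and differences shared by all sites of a library are thus not part of these shares.

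Sites were named, among those with 100 reads in all 16 libraries, as the first 2 of the 3 largest called rises and falls in each comparison, the largest and smallest SD, the 2 just inside and outside each limit, the closest pair, the run with most members (of any coverage) and the site nearest the AL-infant median. Alternatives were coverage minima of 20 and 200 reads, uncorrected percentages, 200 bp, a window of 70 to 85%, medians, runs counted once, fits of all groups, with sex or without offset, limma on log2 odds (0.5 reads added), and each monkey left out. Log odds, constants from single standards and library sets were added after seeing the data. Precision rests on at least 100 reads per value and covers counting error only, since PCR reads carry no molecular identifiers. Python 3.11.15 (numpy 2.4.6, pandas 2.3.3, scipy 1.17.1, matplotlib 3.10.9) and R 4.3.3 (limma 3.58.1) were used. Gene annotation and genome sequence of rheMac2 were not used here.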

Additional observations from a re-analysis of the deposited data

Results flagged for a closer look

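In 51 sets of 4 or 5 monkeys of a group, the highest or lowest monkey was compared with the gap expected at the 95% level of Dixon's test, which chance exceeds in about 1 in 20 groups, and 8 stood apart. The gap between the 4225 sites and the clustered sites over 90% was −13.37 points in AL-infant 52, against −14.9 to −14.7 in the other AL-infant monkeys. At SmaI_rheMac2_190212, AL-old 2 had 89.89% and the other AL-old monkeys 75.3 to 76.2%. At SmaI_rheMac2_52948, AL-infant 57 had 45.33% and the others of its group 81.7 to 86.1%. At SmaI_rheMac2_210650, AL-middle 42 had 95.07% against 83.9 to 86.1%. At SmaI_rheMac2_257824, AL-old 7 had 53.79% against 32.1 to 34.9%. At SmaI_rheMac2_215493, AL-infant 52 had 70.6% against 63.4 to 64.4%. SmaI_rheMac2_319100, named for its large SD, stood out in AL-infant 49 with 40.15% against 95.3 to 97.4% and in AL-old 33 with 30.62% against 78.6 to 84.0%. The named sites were chosen for large differences, so their monkeys are not a random draw.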

How the results depend on the processing

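The level results rested on the correction. For AL-old against AL-middle, uncorrected percentages at the same sites gave −2.29 points for the mean, 0.536 for the share under 50%, 1.65 for the SD over sites and −0.856 for the gap to sites over 90%. For CR-old against AL-old they gave −1.77 for the SD and 1.04 for the gap, and for CR-old against AL-middle 0.0211 for the share, and no value passed the threshold. With uncorrected percentages also in the choice of sites, the first comparison gave −0.244, 1.57, 0.435 and, in the other direction, 1.61, and CR-old against AL-old gave −0.603 for the SD and −0.875 for the gap. Log odds gave −0.098 for the mean of AL-old against AL-middle, −0.00635 for clustered minus isolated sites and −0.0286 for the gap, and for CR-old against AL-old 0.0312 for the gap and −0.112 for the SD (−0.118 at sites with 100 reads in every library, −0.104 less counting variance, where CR-old against AL-middle gave 0.00427 and 0.00874). The constant from Gpf414 and Taq353 gave −6.97 points for the mean and 9.54 for the share of AL-old against AL-middle. That from Luc306 gave 22.1 for the mean of CR-old against AL-old, now past the threshold, and −3.28 and 1.14 for the mean and share of CR-old against AL-middle. Among libraries of 1 Luc306 set the SD of CR-old 4 against AL-old was −3.82 points, a value of 1 monkey that no test can place past the threshold. The Luc306 reading of CR-old 4 was below those of all AL-old libraries in that set. With neighbours within 200 bp, clustered minus isolated gave 1.35 (AL-old against AL-middle, past the threshold) and 0.145 (CR-old against AL-middle), and the gap of CR-old against AL-old 6.86.

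Called sites of AL-old against AL-middle were 225 higher and 96 lower without offset, 96 lower both ways, 8 higher at 200 reads and 2 higher with limma on log2 odds. For CR-old against AL-old they were 2666 higher and 12 lower in a fit of all groups, 0 and 0 with limma on log2 odds, 21 and 37 without offset, and 21 higher both ways. For CR-old against AL-middle they were 71 and 7 in a fit of all groups, 2 and 0 with sex, 7 and 3 without offset, 0 higher with limma on log2 odds, 7 higher at 200 reads, 2 higher both ways and 0 lower at 20 reads. Shares over all sites tested are given above for the fits without offset and for calls made both ways, and not for the other fits.

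With each monkey left out, the difference between AL-old and AL-middle ranged from −15.9 to −11.6 points (mean), 16.8 to 27.4 (share), 3.72 to 5.04 (SD), −0.0562 to 0.575 (clustered minus isolated) and −7.37 to −5.75 (gap). For CR-old against AL-old the ranges were 12.8 to 17.1, −28.4 to −17.8, −5.44 to −4.12, −1.85 to −1.01 and 6.55 to 8.17, and for CR-old against AL-middle 0.216 to 2.60, −1.49 to −0.403, −0.895 to −0.0318, −1.51 to −0.676 and 0.197 to 1.72. These smaller groups often cannot pass an adjusted threshold. Calls ranged from 6 to 18 higher and 651 to 2377 lower (AL-old against AL-middle), 815 to 2473 and 0 to 5 (CR-old against AL-old) and 0 to 53 and 0 to 21 (CR-old against AL-middle). Shares over all sites tested are not given for these calls. Among the other alternatives for the measures and the counts of calls, 128 were classed as the same. For the measures this meant the same direction and side of the threshold, and for calls a count near the main one. In 22 a count of calls moved further, and 9 values were reversed. In 20 a difference no longer passed the threshold, and in 2 it newly passed. Where a value changed, the cause was not tested. No paired analysis was possible because the groups share no monkey numbers.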
